A study of Mus musculus with 8 samples.

Results

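Tight junctions are built from claudins, occludin and the cytoplasmic zonula occludens scaffolds, and 9 mouse genes of this kind were followed across 4 mammary carcinoma cell lines. They were 6 claudins (Cldn1, Cldn3, Cldn4, Cldn6, Cldn7 and Cldn12), occludin (Ocln) and the scaffolds Tjp1 and Tjp3. The genes were chosen by name, as the rows whose Ensembl IDs carry these symbols in the annotation, so they are 9 of the 53379 gene IDs in the count files and 6 of 35 annotated claudin symbols. RNA of adherent monolayer cultures was sequenced from the lines pB3, pB2, 687g and Epcam hi, with 2 libraries per line. All lines have a C57BL/6 background and the MMTV-PyMT transgene, in which a mouse mammary tumour virus promoter drives the polyomavirus middle T antigen. The lines 687g and Epcam hi come from mice that also carry Snail-IRES-YFP, a reporter of Snail (Snai1) expression, and pB3 and pB2 come from MMTV-PyMT mice without it as labelled. Each group is a single cell line, so that a difference between groups is a difference between lines. The labels do not say whether the 2 libraries of a line came from separate cultures, and p-values therefore measure the spread between these libraries, which may be technical.

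Tight junctions seal the space between neighbouring epithelial cells and separate their apical from their basolateral membrane. Claudins form the paracellular strands, occludin is a further membrane protein of those strands, and the scaffolds ZO-1 (Tjp1) and ZO-3 (Tjp3) tie them to actin and to the polarity machinery. In epithelial to mesenchymal transition (EMT) epithelial junction genes are typically repressed while vimentin (Vim) is induced, and low levels of several claudins define the claudin-low class of breast cancer. The comparison asks which of these genes are lost, kept or gained in each line with high vimentin.

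Vim stood at 2310 and 2432 CPM (read counts scaled to library size) in pB3, against 13.8 and 14.1 CPM in pB2. It stood at 3388 and 2335 CPM in 687g, against 21.3 and 32.5 CPM in Epcam hi. The line pB3 was therefore read against pB2 and 687g against Epcam hi, within each mouse model. Total counts ranged from 12442730 to 19149916 per library, and the libraries of a line correlated across genes at r between 0.976 (Epcam hi) and 0.993 (pB3). In Epcam hi 13.4% of the genes tested differed more than 2-fold between its libraries, compared with 2.96% in pB2, 3.22% in pB3 and 6.32% in 687g. Epithelial markers (Epcam, Cdh1 and 4 keratins) had counts in every line, and their summed level was 3498 to 3746 CPM in pB3, 1183 to 1261 CPM in pB2, 2292 to 2678 CPM in 687g and 8019 to 8956 CPM in Epcam hi. Outside pB2 most of that sum was Krt7, Krt8 and Krt18, and the order of the sums did not hold for Epcam, which averaged 271 CPM in pB3, 566 CPM in pB2, 3.77 CPM in 687g and 1473 CPM in Epcam hi. Leukocyte markers summed to between 0.815 and 3.85 CPM in pB3, pB2 and 687g and to between 14.6 and 36.5 CPM in Epcam hi, nearly all of it Cd68, with the pan-leukocyte gene Ptprc at 2 and 7 counts. Endothelial markers summed to at most 7.90 CPM, in pB2, where 6 of 8 were at 0. Fibroblast markers summed to between 945 and 1132 CPM in 687g, mostly Smoc2, and to between 349 and 468 CPM in Epcam hi, mostly Gsn. They summed to between 187 and 205 CPM in pB3, mostly Gsn, and to between 58.9 and 73.4 CPM in pB2, mostly Pdgfra. Dpt was at 0 in every line. The part of such cells in the results below was not tested. In bulk RNA, fewer cells that express a gene and less of its RNA per cell cannot be told apart.

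The 2 lines with high vimentin differed in what they kept. In 687g all 8 tested genes were lower than in Epcam hi, and 5 of them (Cldn1, Cldn3, Cldn7, Ocln and Tjp3) had a mean under 1 CPM. In pB3 5 genes were lower than in pB2 (Cldn3, Cldn7, Cldn12, Ocln and Tjp3) and 3 were higher (Cldn1, Cldn4 and Tjp1), and of the 5 only Tjp3 fell under 1 CPM. Cldn6 had 10 counts in all 8 libraries together and did not pass the filter on low counts, so 8 of the 9 genes were tested. Each difference was tested with edgeR's quasi-likelihood F test, two-sided, on a fit of all 8 libraries, and was called at a Benjamini-Hochberg adjusted p under 0.05 over the 15890 genes tested. Of all genes tested, 44.8% were called between pB3 and pB2 (21.6% higher, 23.2% lower) and 36.4% between 687g and Epcam hi (18.4% higher, 18.0% lower). The median log2 fold change of the 8 genes was -0.76 in pB3 against pB2, beside 0.02 over all genes tested, and -6.64 in 687g against Epcam hi, beside -0.03. Scaling by total counts moved the all-gene median of pB3 against pB2 to -0.17 and left 2766 genes higher and 4591 lower, against 3427 higher and 3689 lower in the reported fit. The same scaling moved the all-gene median of 687g against Epcam hi to -0.15.

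**Figure D1:**
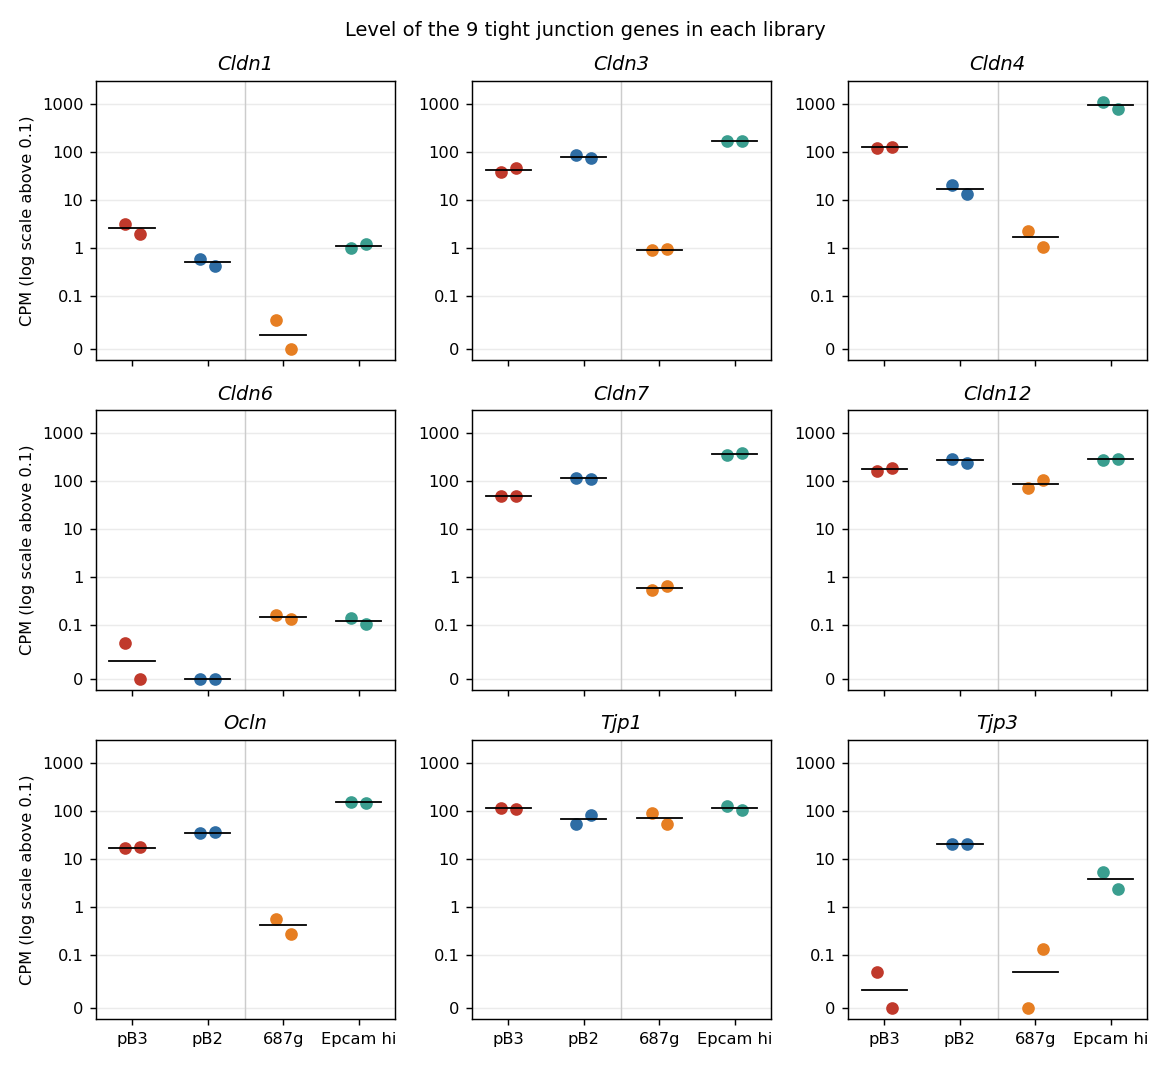
Level of each gene in CPM (log axis above 0.1, linear below it so that zeros can be drawn) in the 2 libraries of pB3, pB2, 687g and Epcam hi; points are libraries and bars are means. Cldn12 and Tjp1 stayed above 50 CPM in all 8 libraries, while Cldn3, Cldn7 and Ocln lay under 1 CPM in both 687g libraries alone.

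Sequence at the start sites was read because the genes moved together in 687g and because factors of EMT that bind CAGGTG (the E2-box) were themselves different between the lines, not all in 1 direction, as given further below. In the RefSeq promoter windows of GRCm38.p6, from 250 bases before to 50 after a start site, CAGGTG on either strand occurred in 6 of the 9 genes (Cldn3, Cldn4, Cldn6, Cldn7, Ocln and Tjp3). It occurred in 22.6% of all 27025 genes with such a window. Cldn1, Cldn12 and Tjp1 had no such match in their windows. The Tjp1 window was that of a start site inside the gene (chr7:65371244), so the annotated gene start (65527781) was not searched. Genes with several start sites, here Cldn7, Cldn12, Ocln and Tjp3, have several windows and thus more chances of a match. A Grainyhead-like motif, AACCGGTT, was searched in the same windows and occurred in 0 of the 9 genes, beside 0.17% of all genes. One match of each of the 6 genes is printed 5′ to 3′ on the gene's strand, with the E2-box in capitals (CACCTG is the same box read from the other strand). The stretches start at chr5:134986233-134986262 (plus strand) for Cldn3, chr5:134946906-134946935 (minus) for Cldn4, chr17:23679385-23679414 (plus) for Cldn6, chr11:69965352-69965381 (plus) for Cldn7, chr13:100552694-100552723 (minus) for Ocln and chr10:81291267-81291296 (minus) for Tjp3.
Cldn3: caaagccacaggCAGGTGcaggggcagtct
Cldn4: cctttcttgttgCAGGTGcaggcaggaaag
Cldn6: aatcttagcagtctcttttgCAGGTGagcc
Cldn7: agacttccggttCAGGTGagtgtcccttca
Ocln: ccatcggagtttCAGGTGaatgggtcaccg
Tjp3: cacaaaccctccCACCTGcaggccggcctc
Counting the start base as 1, the first base of the box was base 32 in Cldn3, base 12 in Cldn4, base 41 in Cldn6 and base 8 in Ocln. That base lay 57 bases before a start site in Cldn7 and 17 before one in Tjp3. These are further start sites inside the gene, at chr11:69965421 and chr10:81291267. At the annotated gene start, the Cldn7 window (start site 69964779) had no match. The Tjp3 window there (start site 81291581) had 1, at 108 bases before it. A match is a description of these letters and shows no binding.

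Cldn4, which encodes a sealing claudin of glandular epithelium, rose in pB3 and fell in 687g. It had 122 and 126 CPM in pB3, against 20.4 and 13.2 CPM in pB2. In 687g it had 2.29 and 1.08 CPM, against 1087 and 792 CPM in Epcam hi. No library of 1 line of a pair overlapped with the other line. The log2 fold change was 2.90 ± 0.27 (SE, adjusted p = 1.1e-06) in pB3 against pB2 and -9.09 ± 0.37 (adjusted p = 5.3e-10) in 687g against Epcam hi. The 687g value was -9.73 without replicate 1 of 687g and -8.63 without replicate 2. Even so, pB3 had less Cldn4 than Epcam hi (log2 fold change -2.92 ± 0.27), since Epcam hi averaged 939 ± 209 CPM (SD, n = 2) and pB2 only 16.8 ± 5.10 CPM. The order Epcam hi, pB3, pB2, 687g therefore had every neighbouring step past the test, with pB2 still above 687g.

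Cldn3, a claudin whose loss marks the claudin-low class, lies 39279 bases from Cldn4 on chromosome 5 (Cldn3 at chr5:134986214-134987472, plus strand, and Cldn4 at chr5:134945119-134946934, minus strand, GRCm38). It had 38.9 and 46.1 CPM in pB3, against 85.5 and 73.4 CPM in pB2. The level in 687g was 0.893 and 0.941 CPM, against 166 CPM in each library of Epcam hi. It thus fell in both pairs, by 0.90 ± 0.18 on the log2 scale in pB3 (adjusted p = 8.6e-04) and by 7.49 ± 0.26 in 687g (adjusted p = 1.7e-10), where 30 counts were left over both libraries. In pB3 these neighbouring genes moved in opposite directions, and in 687g in the same direction. The 250 bases before each start site are shown. Cldn4 holds a second E2-box (in capitals) there, and Cldn3 holds none in this stretch, its box at base 32 lying after the start site. Whether these boxes bear on the change of either gene was not tested. The stretches lie at chr5:134946935-134947184 (minus strand) and chr5:134985964-134986213 (plus strand).
Cldn4: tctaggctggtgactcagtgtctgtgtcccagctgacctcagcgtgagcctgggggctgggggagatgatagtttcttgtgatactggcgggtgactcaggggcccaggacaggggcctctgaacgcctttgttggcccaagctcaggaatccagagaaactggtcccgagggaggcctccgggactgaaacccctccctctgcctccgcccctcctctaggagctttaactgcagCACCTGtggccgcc
Cldn3: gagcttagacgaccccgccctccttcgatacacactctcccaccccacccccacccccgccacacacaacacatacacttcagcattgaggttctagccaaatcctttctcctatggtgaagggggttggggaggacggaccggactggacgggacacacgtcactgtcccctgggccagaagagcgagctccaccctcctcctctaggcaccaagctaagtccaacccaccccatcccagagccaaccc
An antisense gene, Wbscr25, overlaps Cldn3 on the other strand and had 27 counts in all 8 libraries, with counting stated to use strand.

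Cldn7, a claudin of the lateral membrane of many epithelia (chr11:69964779-69967885), followed the same order as Cldn3. It had 49.5 and 49.3 CPM in pB3, against 116 and 114 CPM in pB2. Libraries of 687g had 0.558 and 0.672 CPM, against 353 and 396 CPM in Epcam hi. The libraries of a line were close and those of different lines far apart, so pB3 had a reduced level while 687g had 10 counts in each library. The fall was 1.22 ± 0.17 on the log2 scale in pB3 (adjusted p = 4.2e-05) and 9.24 ± 0.26 in 687g (adjusted p = 7.7e-11).

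Ocln, which encodes occludin (chr13:100496507-100552718), had 16.5 and 17.8 CPM in pB3, against 34.1 and 35.7 CPM in pB2. Only 0.558 and 0.269 CPM were left in 687g, against 153 and 146 CPM in Epcam hi. Occludin RNA was therefore lower in both lines with high vimentin, and 687g was left with 14 counts over its libraries. The log2 fold changes were -1.02 ± 0.19 (adjusted p = 5.4e-04) in pB3 and -8.43 ± 0.29 (adjusted p = 1.7e-10) in 687g. Cldn3, Cldn7 and Ocln shared 1 order of levels, Epcam hi, pB2, pB3, 687g, and each step of it passed the test.

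Cldn12 (chr5:5489537-5514958) encodes a claudin without the PDZ-binding end by which most claudins attach to zonula occludens proteins. Of the 5 tested claudins among the 9 genes, it had the smallest fall in 687g. It had 168 and 188 CPM in pB3, against 299 and 246 CPM in pB2. Levels of 72.0 and 106 CPM were found in 687g, against 282 and 292 CPM in Epcam hi. No libraries of a pair overlapped, and even the lowest library had 1290 counts. The log2 fold change was -1.69 ± 0.21 in 687g (adjusted p = 2.0e-05) and -0.61 ± 0.20 in pB3 (adjusted p = 0.0242). The pB3 call ended without replicate 1 of pB2 (-0.47, adjusted p = 0.206), without replicate 1 of pB3 (-0.53, adjusted p = 0.204) and without replicate 2 of pB3 (-0.70, adjusted p = 0.0864). Epcam hi and pB2 were not separated (log2 fold change 0.08 ± 0.20, adjusted p = 0.776), and this small value changed sign under scaling by total counts.

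Cldn1, a claudin of skin and of many other epithelia (chr16:26356642-26371841), was scarce everywhere and was highest in pB3. It had 3.23 and 1.94 CPM in pB3, against 0.592 and 0.424 CPM in pB2. In 687g a single count was found in 2 libraries, against 14 and 22 counts in Epcam hi. Cldn1 thus rose in pB3 (log2 fold change 2.35 ± 0.55, adjusted p = 0.0033) on 78 counts in pB3 and 16 in pB2. That call ended without replicate 2 of pB2 (2.10, adjusted p = 0.0669) and without replicate 1 of pB3 (1.94, adjusted p = 0.0756). The fall in 687g passed the test (adjusted p = 6.1e-04). The ratio of its counts, Epcam hi over 687g, was 36.3 with an exact 95% Poisson interval from 6.12 to 1474, which covers counting error only. Neither pB3 and Epcam hi (adjusted p = 0.0888, or 0.0436 without replicate 2 of Epcam hi) nor Epcam hi and pB2 (adjusted p = 0.119) were separated.

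Cldn6, a claudin of embryonic epithelium (chr17:23679249-23682446), was at the limit of detection in every line. It had 1 and 0 counts in pB3, against 0 in both pB2 libraries, and 3 and 2 counts in 687g, against 2 and 2 counts in Epcam hi. A total of 3 counts in a library corresponds to between 0.159 and 0.222 CPM, so that no gain or loss of Cldn6 was detectable at this depth.

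Tjp1, the broadly expressed scaffold ZO-1 (chr7:65296165-65527781), was kept in every line. It had 116 and 109 CPM in pB3, against 53.9 and 81.0 CPM in pB2. The 687g libraries had 88.4 and 51.9 CPM, against 125 and 104 CPM in Epcam hi. The libraries of a pair did not overlap in either case, but those of pB2 and of 687g lay far apart within their line. The log2 fold change was 0.74 ± 0.25 in pB3 against pB2 (adjusted p = 0.0291) and -0.71 ± 0.25 in 687g against Epcam hi (adjusted p = 0.0424). Both calls were fragile. The pB3 call ended under scaling by total counts (0.54, adjusted p = 0.114), without replicate 1 of pB2 (0.46, adjusted p = 0.297), without replicate 1 of pB3 (adjusted p = 0.110) and without replicate 2 of pB3 (adjusted p = 0.0706). The 687g call ended in a fit of those lines alone (adjusted p = 0.0680), without replicate 2 of 687g (-0.33, adjusted p = 0.340), without replicate 1 of Epcam hi (-0.57, adjusted p = 0.142), without replicate 2 of pB2 (adjusted p = 0.0559) and without either pB3 library (adjusted p = 0.0549 and 0.0545). In order of level, pB3 and Epcam hi were not separated (adjusted p = 0.964), nor were 687g and pB2 (adjusted p = 0.875).

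Tjp3, the epithelial scaffold ZO-3 (chr10:81273207-81291581), was the gene lost in both lines with high vimentin. It had 1 and 0 counts in pB3, against 276 and 391 counts (20.4 and 20.7 CPM) in pB2. In 687g it had 0 and 2 counts, against 75 and 44 counts (5.28 and 2.41 CPM) in Epcam hi. Both falls passed the test (adjusted p = 1.8e-07 in pB3 and 2.4e-05 in 687g). The ratio of counts was 625, pB2 over pB3, with an exact 95% Poisson interval from 112 to 24713, and 60.0, Epcam hi over 687g, with an interval from 16.3 to 501. With so few counts the fitted log2 fold changes of -8.98 and -5.78 move with single libraries, to -11.38 without replicate 1 of pB3 and to -8.90 without replicate 2 of 687g. Epcam hi also had less Tjp3 than pB2 (log2 fold change -2.44 ± 0.39, adjusted p = 1.3e-04). Apba3 overlaps exons of Tjp3 on the opposite strand and had 1973 counts over all libraries.

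**Figure D2:**
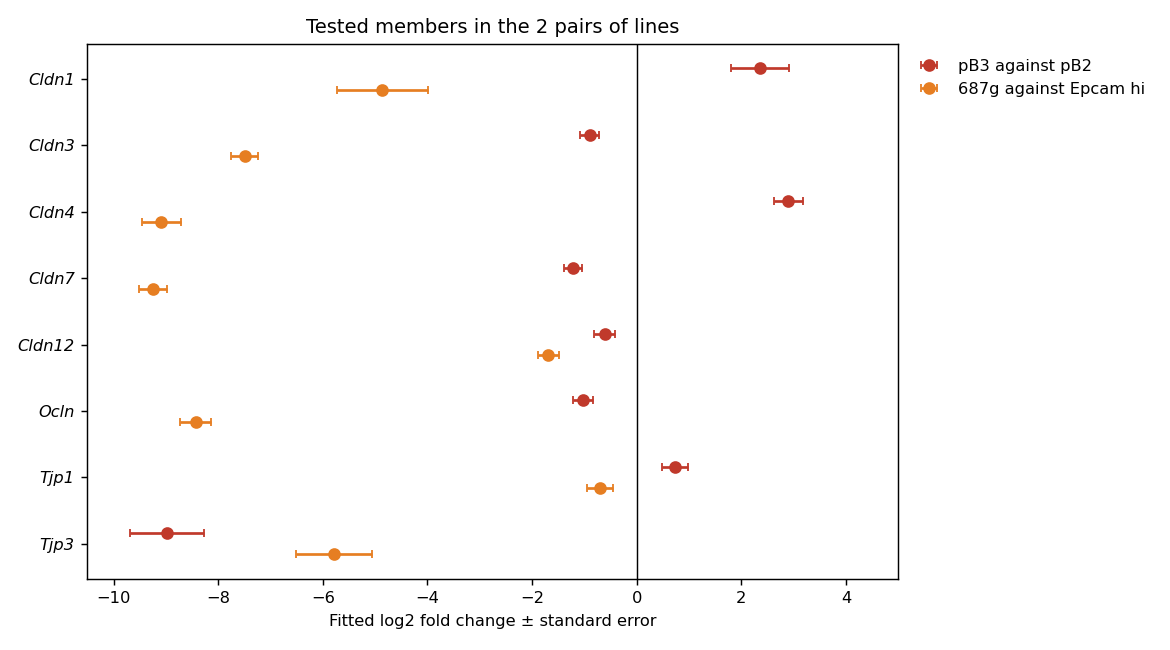
Fitted log2 fold change (points) with its standard error (bars) of the 8 tested genes, for pB3 against pB2 and 687g against Epcam hi. In 687g 6 of 8 genes lie left of -4, while in pB3 Tjp3 alone does and Cldn1, Cldn4 and Tjp1 lie right of 0.

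The change itself was also compared between the pairs, which share no library. In a test of the 687g change minus the pB3 change, 7 of the 8 genes were called, all of them more negative in 687g, beside 37.7% of all genes tested (18.2% with a higher value in 687g, 19.5% with a lower one). The difference was largest for Cldn4, at -11.99 ± 0.46 on the log2 scale (adjusted p = 2.9e-10), followed by Cldn7 at -8.02 ± 0.31 (adjusted p = 2.9e-10) and Ocln at -7.41 ± 0.35 (adjusted p = 1.7e-09). Cldn1 differed by -7.21 ± 1.03 (adjusted p = 8.0e-05) and Cldn3 by -6.59 ± 0.31 (adjusted p = 1.6e-09). The size for Cldn1 rests on 1 count in 687g and ranged from -9.45 to -6.42 when each library was left out in turn. Tjp1 differed by -1.44 ± 0.36 (adjusted p = 0.0056) and Cldn12 by -1.08 ± 0.29 (adjusted p = 0.0087), and the call of Cldn12 ended without replicate 2 of pB2 (-0.88, adjusted p = 0.0846) or replicate 2 of pB3 (-0.97, adjusted p = 0.0559). Tjp3 was not separated (3.20 ± 1.92, adjusted p = 0.217), and its wide error comes with 1 and 2 counts in pB3 and 687g.

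The lines with low vimentin were not alike either, and comparisons across the models share these lines with the ones above. Against pB2, Epcam hi had more of 5 genes (Cldn3, Cldn4, Cldn7, Ocln and Tjp1) and less Tjp3, beside 51.4% of all genes called (25.8% higher, 25.6% lower). Cldn4 was the extreme, with a log2 fold change of 5.82 ± 0.31 (adjusted p = 3.2e-09), and Ocln was 2.10 ± 0.19 higher (adjusted p = 5.8e-07). The Tjp1 call (0.76, adjusted p = 0.0220) ended under scaling by total counts (adjusted p = 0.0564), without replicate 1 of Epcam hi (adjusted p = 0.0787) and without replicate 1 of pB2 (adjusted p = 0.249). Between the lines with high vimentin, 687g had less than pB3 of all 6 tested genes other than the scaffolds Tjp1 and Tjp3, beside 25.8% of all genes called (12.8% higher, 12.9% lower). The log2 fold change was -6.32 ± 0.25 for Cldn7 (adjusted p = 1.9e-09) and -6.17 ± 0.34 for Cldn4 (adjusted p = 1.9e-08). Cldn1 had a count ratio, pB3 over 687g, of 84.4 (exact 95% Poisson interval from 14.7 to 3376). The smallest of these gaps was that of Cldn12 (adjusted p = 0.0022), whose libraries did not overlap. Tjp1 was not called (-0.68 ± 0.25, adjusted p = 0.0650), although 6 of 16 alternative settings called it lower. Against pB2, 687g had less of 7 genes, beside 52.3% of all genes called (25.6% higher, 26.7% lower), and against Epcam hi, pB3 had less of 6, beside 29.4% (14.8% higher, 14.6% lower). In the comparison of pB3 with Epcam hi the call of Cldn12 (-0.69, adjusted p = 0.0203) ended without either library of pB3 (adjusted p = 0.210 and 0.0939), without replicate 2 of Epcam hi (adjusted p = 0.0595) and without replicate 2 of pB2 (adjusted p = 0.0504).

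Divided by exon length, the claudins of a line can be set against each other. Summed over the 35 claudin symbols, the level was 171 ± 8.49 CPM per kb in pB3, against 211 ± 19.3 CPM per kb in pB2 (SD, n = 2 each). It was 25.4 ± 5.66 CPM per kb in 687g, against 914 ± 99.1 CPM per kb in Epcam hi. The libraries of pB3 (165 and 177 CPM per kb) lay under those of pB2 (225 and 197 CPM per kb), a smaller gap than between 687g and Epcam hi. The makeup of the total differed as well. Cldn4 made up 40.0% ± 1.07 of claudin RNA in pB3, against 4.33% ± 0.934 in pB2. The shares of Cldn3, Cldn7 and Cldn12 in pB3 were 19.7%, 14.8% and 24.6%, against 29.9%, 28.0% and 30.5% in pB2. In 687g Cldn12 alone held 82.6% ± 4.09, against 7.48% ± 0.983 in Epcam hi, and Cldn4 held 3.96% ± 2.74, against 56.2% ± 6.49 in Epcam hi. These shares are descriptions and were not tested.

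**Figure D3:**
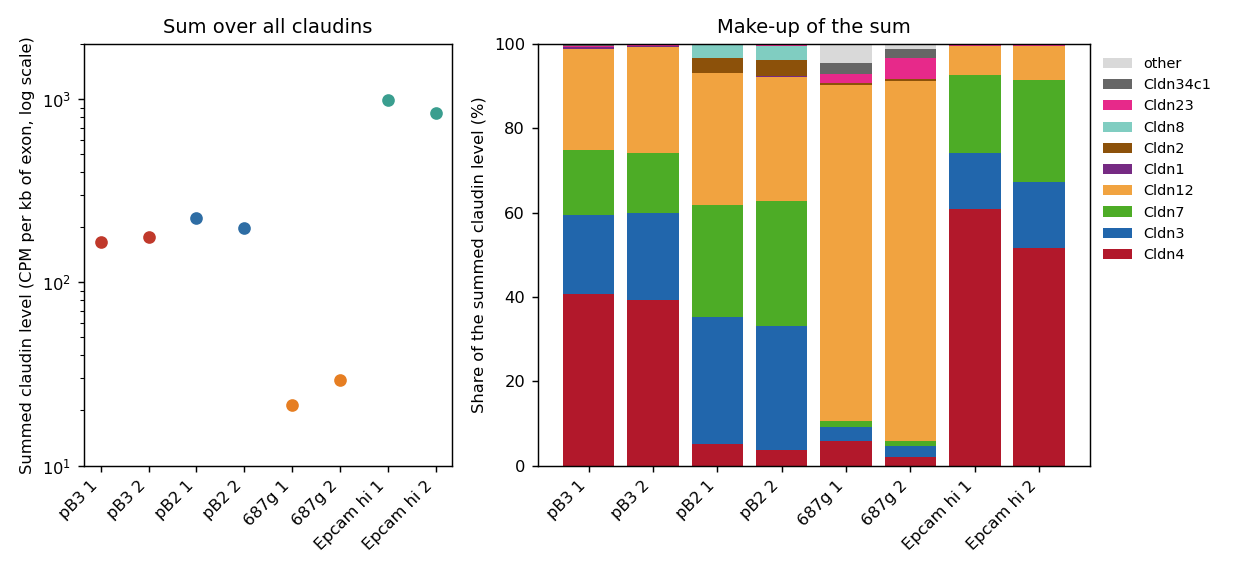
Summed claudin level (left, CPM per kb of exon, log axis, 1 point per library) and the share of each claudin in that sum (right, in percent, 1 bar per library) in pB3, pB2, 687g and Epcam hi. Cldn4 holds a mean of 40.0% in pB3 and 4.33% in pB2, and Cldn12 a mean of 82.6% in 687g and 7.48% in Epcam hi.

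Among the remaining claudins, Cldn2 and Cldn8 were present in pB2 and at or near 0 elsewhere. Of 35 symbols (33 genes and 2 pseudogenes), 9 reached a mean of 1 CPM in some line and 14 had no count in any library, among them the endothelial claudin Cldn5. Cldn2, a claudin that forms cation pores, had 3 counts in pB3, against 26.6 and 24.9 CPM in pB2. The ratio of counts, pB2 over pB3, was 259 (exact 95% Poisson interval from 88.2 to 1256; edgeR adjusted p = 4.0e-09). Cldn8, a barrier claudin of tight epithelia, had no count in pB3, 687g or Epcam hi, against 209 and 305 counts (15.5 and 16.2 CPM) in pB2. With pB3 set to 3 counts in all, it was at least 160-fold lower there than in pB2. Cldn23 had 0.837 and 2.75 CPM in 687g, against 7.95 and 5.80 CPM in Epcam hi (log2 fold change -1.95 ± 0.51, edgeR adjusted p = 0.0080), a call that ended without replicate 1 of 687g (-1.29, adjusted p = 0.0657). Cldn34c1 was the claudin called higher in 687g than in Epcam hi, at 60 and 52 counts, against 0 and 2 (edgeR adjusted p = 2.1e-05). It was nearly absent in Epcam hi alone, with 34 and 50 counts in pB2 and 20 and 19 in pB3. For this gene 687g and pB2 were not separated (log2 fold change 0.40 ± 0.44, edgeR adjusted p = 0.474). How reads shared with other Cldn34 genes were counted is not given in the sources used here, so the value of Cldn34c1 is uncertain.

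Among 9 other membrane proteins of tight junctions, Ildr1 fell in both pairs while the junctional adhesion molecule Jam3 rose in both. In pB3 4 were called higher and 5 lower (median log2 fold change -0.48), beside 44.8% of all genes called, and in 687g 1 was called higher, 7 lower and 1 was not called (median -1.65), beside 36.4%. Ildr1 (angulin-2), a receptor at tricellular corners, had 0.740 and 0.518 CPM in pB3, against 27.7 and 30.8 CPM in pB2. In 687g it had 3 counts, against 26.3 and 24.7 CPM in Epcam hi, and both differences passed the test (edgeR adjusted p = 3.2e-09 and 1.8e-09). Lsr (angulin-1), which recruits tricellulin, had 0.670 and 0.336 CPM in 687g, against 111 and 143 CPM in Epcam hi (log2 fold change -7.92 ± 0.31, adjusted p = 3.5e-10). Marveld3, a relative of occludin, had 1.28 and 2.33 CPM in pB3, against 49.0 and 39.4 CPM in pB2 (log2 fold change -4.60 ± 0.34, edgeR adjusted p = 9.5e-08). Jam3, an adhesion molecule also found outside epithelia, ran the other way. It had 6.25 and 8.29 CPM in pB3, against no count in pB2, at least 78.6-fold higher by the floor of 3 counts. In 687g it had 5.53 and 6.38 CPM, against 0.281 and 0.109 CPM in Epcam hi (log2 fold change 4.94 ± 0.52, edgeR adjusted p = 7.4e-06). Ildr2 (angulin-3) had 5.11 and 4.60 CPM in pB3 and no count in pB2, at least 52.3-fold higher, with 1 count in 687g and none in Epcam hi.

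Of 17 other scaffold and polarity genes, 4 were called higher in pB3, 6 lower and 7 were not called (median log2 fold change -0.17), beside 44.8% of all genes called. In 687g 1 was called higher, 9 lower and 7 were not called (median -0.92), beside 36.4%. Paracingulin (Cgnl1), a scaffold shared with adherens junctions, rose by 1.63 ± 0.20 on the log2 scale in pB3 (edgeR adjusted p = 1.5e-05). Magi2, a PDZ scaffold, fell by 2.40 ± 0.41 (adjusted p = 2.5e-04) and the atypical kinase gene Prkcz by 1.80 ± 0.47 (adjusted p = 0.0072), although the Prkcz call ended without replicate 2 of pB3 (-1.61, adjusted p = 0.0698). In 687g the apical polarity gene Crb3 had no count, against 48.3 and 62.5 CPM in Epcam hi, at least 614-fold lower by the floor, and Prkcz had no count either, at least 104-fold lower. Magi1 had 118 and 77.9 CPM in 687g, against 56.8 and 50.7 CPM in Epcam hi, a call (0.86 ± 0.22, edgeR adjusted p = 0.0069) that ended without replicate 1 of 687g (0.56). Magi1 was also higher in pB3, at 36.9 and 35.0 CPM, against 14.6 and 19.6 CPM in pB2 (log2 fold change 1.07). Cgnl1 was lower in 687g than in Epcam hi (log2 fold change -0.92 ± 0.20, edgeR adjusted p = 0.0021), the reverse of its rise in pB3. Of 7 signalling and trafficking genes of the junction, 3 were called higher and 0 lower in pB3, beside 44.8% of all genes (21.6% higher, 23.2% lower). In 687g 0 were called higher and 2 lower, beside 36.4% (18.4% higher, 18.0% lower). Counted in either direction, neither number of calls exceeded the share over all genes. In the called direction alone both exceeded it, on only 7 genes. Ybx3, the ZO-1 partner ZONAB, had 314 and 313 CPM in pB3, against 179 and 194 CPM in pB2, and 267 and 171 CPM in 687g, against 476 and 525 CPM in Epcam hi (edgeR adjusted p = 0.0088 and 4.4e-04). In pB3 the count of 3 was 0 without replicate 1 of pB2, without replicate 1 of pB3 and without replicate 2 of pB3, 1 without replicate 2 of pB2 or under scaling by total counts, and 5 in a fit of those lines alone. In 687g the count of 2 was 1 in a fit of those lines alone, without replicate 2 of 687g and without replicate 1 of Epcam hi. Arhgef2, the junctional exchange factor GEF-H1, was called in pB3 (0.65, edgeR adjusted p = 0.0113) and Amotl1, an angiomotin, in 687g (-0.69, adjusted p = 0.0201), each losing its call without some libraries.

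**Figure D4:**
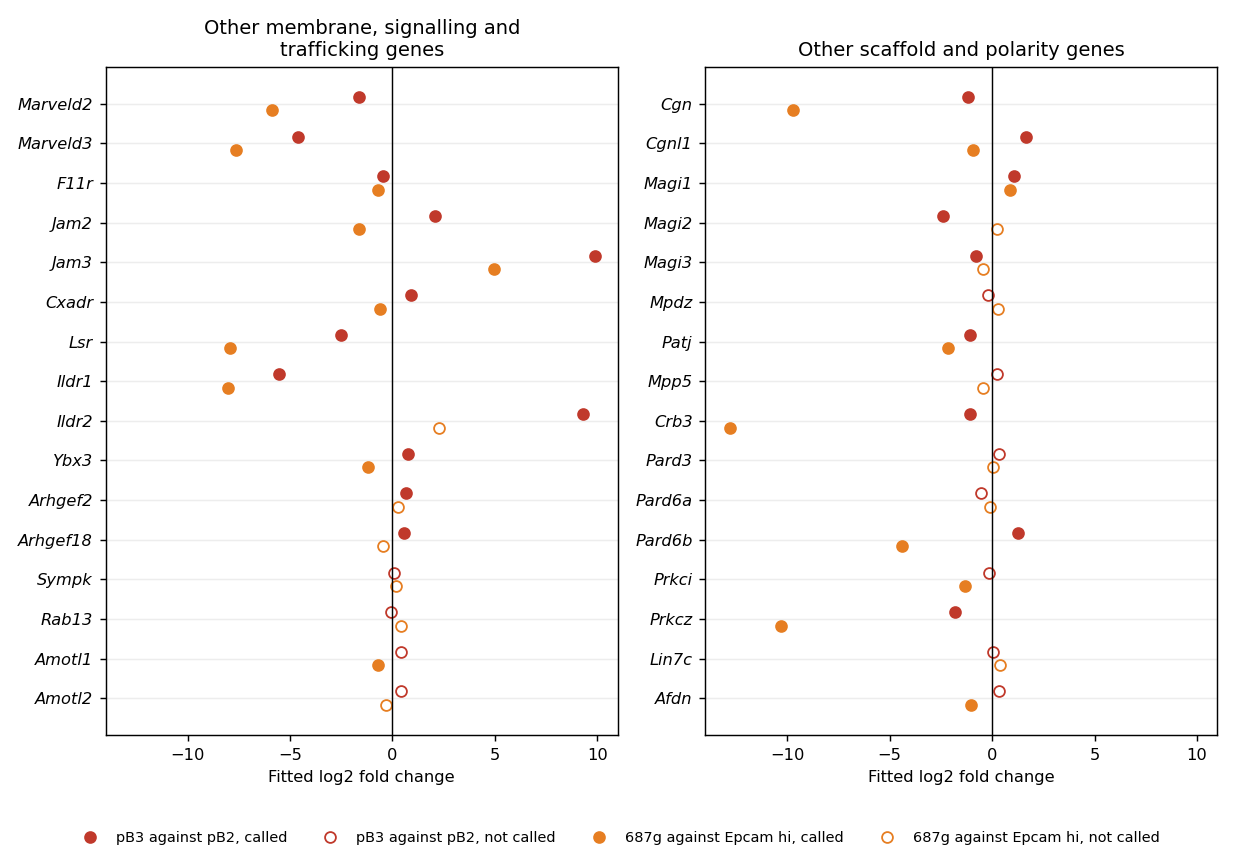
Fitted log2 fold change of other tight junction genes for pB3 against pB2 and 687g against Epcam hi, with filled points for calls at an adjusted p under 0.05 and open points for genes not called; 1 of the 17 scaffold and polarity genes is not drawn. Values of genes with no count in a line (Jam3, Ildr2, Crb3 and Prkcz) depend on the prior count of the fit; Jam3 is the gene called higher in both pairs in the left panel.

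Transcription factors with a described link to junction genes separated the lines further. Of 11, 4 were called higher and 7 lower in pB3 (median log2 fold change -2.95), beside 44.8% of all genes called, and 5 higher, 4 lower and 2 not called in 687g (median -0.79), beside 36.4%. Zeb1, a repressor that binds E2-boxes, had 27.1 and 28.0 CPM in pB3, against 3 counts in pB2, a count ratio of 297 (exact 95% Poisson interval from 101 to 1444). Zeb1 had 49.6 and 41.5 CPM in 687g, against 0.352 and 1.04 CPM in Epcam hi (log2 fold change 5.95 ± 0.34, edgeR adjusted p = 1.1e-08). Zeb2, its relative, rose by 4.58 ± 0.26 in pB3 (adjusted p = 6.7e-09) and by 3.04 ± 0.23 in 687g (adjusted p = 2.0e-07). The Snail gene Snai1, which also encodes an E2-box repressor, ran the other way in pB3, with 8.40 and 10.8 CPM, against 14.7 and 17.9 CPM in pB2. That call (-0.77 ± 0.29, edgeR adjusted p = 0.0442) ended under limma-voom (adjusted p = 0.0577) and without any 1 library of pB3 or pB2 (adjusted p = 0.0627 to 0.262). Snai1 was higher in 687g, with 25.8 and 14.7 CPM, against 5.35 and 3.72 CPM in Epcam hi (log2 fold change 2.17 ± 0.30, edgeR adjusted p = 7.0e-05). Its relative Snai2 rose in pB3 (2.49 ± 0.50, adjusted p = 0.0010) and was not called in 687g (-0.79 ± 0.46, adjusted p = 0.205). Among epithelial activators, Grhl1 had 1 count in pB3, against 597 in pB2, and Grhl3 had none, against 39 in pB2. Grhl1 was called the other way in 687g, at 38 counts, against 12 in Epcam hi (log2 fold change 1.64 ± 0.53, edgeR adjusted p = 0.0270). That call ended in a fit of those lines alone (adjusted p = 0.0952), without replicate 1 of 687g (adjusted p = 0.113), without replicate 1 of Epcam hi (adjusted p = 0.123) and without either pB2 library (adjusted p = 0.0524 and 0.0543). Elf3 and Ovol2 had no count in 687g, against 614 and 234 counts in Epcam hi, at least 206-fold and 78.7-fold lower by the floor. Elf3 was at 0.605 and 0.518 CPM in pB3, against a mean of 8.45 ± 0.645 CPM in pB2 (SD, n = 2), so pB3 retained a low level of it.

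Genes whose pattern over the 4 lines lay nearest to each gene were found by the root mean square difference of centred log2 line means, among 11467 tested genes with at least 5 CPM in some line. For Cldn7 the nearest was Cdh1 (E-cadherin) at 0.21, and for Ocln it was Crb3 at 0.26. Cdh1 had 51.8 and 51.0 CPM in pB3, against 144 and 167 CPM in pB2, and 1.90 and 0.739 CPM in 687g, against 457 and 520 CPM in Epcam hi. The nearest to Cldn3 was Dapk2 at 0.34, to Cldn12 Mbnl3 at 0.046, to Tjp1 Atp2b1 at 0.046 and to Tjp3 Ckmt1 at 0.17. Cldn4 had no close match, its nearest being Ankrd22 at 0.86, and for Cldn1 it was Il1rap at 0.25, which lies on the same chromosome. Cldn1 averaged at most 2.59 CPM, in pB3, so the 0.5 added to CPM before the log flattens its pattern. Il1rap averaged 7.59 CPM in 687g, against 20.3 CPM in Epcam hi, while Cldn1 had 1 count in 687g, against 36 in Epcam hi. The added 0.5 also weighs on the lowest lines of other matches. In 687g Ocln averaged 0.413 CPM and Crb3 had no count. Tjp3 averaged 0.034 CPM in pB3 and 0.067 CPM in 687g, and Ckmt1 0.034 and 0.028 CPM. Such likeness rests on 4 lines and on the libraries that all genes share. No match is given for Cldn6, whose level was near 0 everywhere.

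Genes around each member on its chromosome were compared with it. Other tested genes within 1 Mb on either side had a median log2 fold change between -0.13 and 0.21 in pB3 against pB2 for every gene except Cldn1. For Cldn4 that median was -0.04 over 37 genes in pB3 against pB2 and -0.18 in 687g against Epcam hi, and for Cldn7 it was -0.02 and -0.06 over 84 genes. For Cldn1, which has 4 tested neighbours, it was -5.75 in pB3, where Cldn1 itself was higher, and -2.38 in 687g. In 687g against Epcam hi the 16 neighbours of Tjp1 had a median of -0.58, with 3 called higher and 7 lower, beside -0.71 for Tjp1 itself. Around the genes other than Cldn1 and Tjp1, that median lay between -0.21 and 0.14 in 687g.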

How the data were processed

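Per the labels' protocols and the series' design text, total RNA (RNeasy) of cells grown as adherent cultures went into KAPA mRNA libraries. The authors aligned with STAR 2.6.1a to GRCm38 (mm10) and used featureCounts, per the submitters' processing notes, with Ensembl annotation and strand-specific counting, per the series' design text. How reads that map to several places were treated is not given in the sources used here. The files the authors deposited hold raw counts per gene, as whole numbers, for 53379 gene IDs in each of 8 libraries, and no row lacked a gene ID. Symbols, coordinates and exon lengths came from GENCODE M21 of the same build, which named 53274 IDs and left 105 without a symbol. Promoter windows came from RefSeq (GRCm38.p6), and all 9 genes matched by symbol. Of these, 1 gene, Cldn6, failed the low-count filter.

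Tests used edgeR 4.0.16 (R 4.3.3): filterByExpr by line, TMM scaling, 1 quasi-likelihood fit over the 8 libraries with line as the factor, and F tests with Benjamini-Hochberg adjustment (4 residual degrees of freedom, median prior 9.35, biological coefficient of variation 0.178). CPM values use TMM-scaled totals, and patterns used log2 of CPM plus 0.5. A line without counts was set to a floor of 3 counts over its libraries. Folds with 1 to 3 counts in a line are count ratios with exact conditional 95% intervals, which cover counting error only. Fitted values of such genes are also given for Tjp3, for the difference between the pairs in Cldn1, in medians and in the figures. The members and gene lists were chosen with earlier results of these data known. The genes named were the 9 members, other claudins that averaged 1 CPM or more in some line, the 2 called genes with the largest fold each way per list and pair, the nearest pattern of each member, and Cdh1, Epcam and Vim; Cldn5, Snai1, Snai2, Grhl1 in 687g, Elf3 in pB3 and marker genes were named beyond that rule, after their values were seen; 1 scaffold gene that the rule names is counted in its list and not reported here. Alternatives were other scalings, filters, DESeq2 1.42.0, limma-voom 3.58.1, a replicate block, a fit of a pair's lines alone and leaving out each library. Scripts were tested on simulated counts.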

Additional observations from a re-analysis of the deposited data

Results flagged for a closer look

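For 7 of the 8 tested genes the change between the lines of a pair differed between the mouse models, by a test of the difference itself in the fit of all 8 libraries (edgeR's quasi-likelihood test, Benjamini-Hochberg adjusted), beside 37.7% of all genes tested. The difference, 687g against Epcam hi minus pB3 against pB2 on the log2 scale, was -11.99 for Cldn4, -8.02 for Cldn7, -7.41 for Ocln, -7.21 for Cldn1, -6.59 for Cldn3, -1.44 for Tjp1 and -1.08 for Cldn12, whose call ended without replicate 2 of pB2 (adjusted p = 0.0846) or of pB3 (adjusted p = 0.0559). The size for Cldn1 rests on 1 count in 687g and ranged from -9.45 to -6.42 when each library was left out in turn. Cldn1, Cldn4 and Tjp1 changed sign between the pairs, since pB3 exceeded pB2 while 687g lay under Epcam hi. Cldn3, Cldn7, Cldn12 and Ocln were lower in both pairs, by unequal amounts. Each model is represented by 1 pair of lines, so that the model and the lines cannot be told apart.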

How the results depend on the processing

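Over 886 recomputed values of the tested members, in 7 contrasts, 842 kept their direction and their side of the threshold, 24 lost and 7 gained a call, and 13 changed sign. The sign changes all concerned differences that were not called: Cldn12 in Epcam hi against pB2 was -0.044 under scaling by total counts, Tjp1 in pB3 against Epcam hi was 0.015 with no filter, and Tjp1 in 687g against pB2 was -0.19 under scaling by total counts. Leaving out each library in turn gave -0.11 to 0.20, -0.083 to 0.11 and -0.37 to 0.38 for these, and -2.40 to 3.16 for Tjp3 in 687g against pB3. It also gave 5 to 8 members called and 1 to 3 higher in pB3 against pB2 (5 called without replicate 1 of pB3), and 2402 to 4991 genes called in 687g against pB3 and 2854 to 6103 in pB3 against Epcam hi, lowest without a pB3 library. A lone library was then assumed to vary like the other lines. The replicate numbers do not pair the libraries (correlation of same-numbered deviations -0.08 for pB3 and pB2, 0.02 for 687g and Epcam hi, and up to 0.17, for pB2 and Epcam hi, over the 6 pairs of lines); with a replicate block 6995 and 5655 genes were called in those pairs, all 8 members kept their calls in each, and Tjp1 in 687g against pB3 gained one (-0.70, edgeR adjusted p = 0.0407), as under 5 other settings, DESeq2 (adjusted p = 0.0428) and no filter (adjusted p = 0.0108) among them. The remaining gained call was that of Cldn1 in pB3 against Epcam hi without replicate 2 of Epcam hi. Depth limits Cldn6, and Cldn1 and Tjp3 where a line had 1 or 2 counts.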
